A study of Drosophila melanogaster with 10 samples.

Results

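Flight muscle of Drosophila melanogaster with a hairpin against Rbf driven in the muscle lineage was compared with flight muscle carrying a control hairpin. The comparison holds the 4 flight muscle libraries of 10 in the series, 2 per genotype, taken by their labels. The other 6 libraries come from the notum of the larval wing disc, 3 per genotype, and are used here where the effect of genotype is set against that in flight muscle. Flight muscle was dissected from pharate animals, the last stage before the adult leaves the pupal case, 96 h after puparium formation. All animals were kept at 25 °C and carried P{UAS-Dicer2.D}1, which strengthens RNA interference, and the Mef2-Gal4 driver, which drives transgenes in the cells of the muscle lineage. The control, labelled WT, also carried P{UAS-mCherry-RNAi}attP2, a hairpin against a gene that flies lack. The genotype labelled Rbf-KD instead carried P{UAS-Rbf-RNAi[GD:10696]}. The hairpins come from different stocks, so the effect of the Rbf hairpin and other differences between the stocks cannot be told apart. The labels do not say whether the libraries of a genotype came from separate groups of animals, and the tests measure the spread between these libraries only.

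Rbf is the main retinoblastoma-family protein of the fly. Such proteins bind E2F transcription factors, dimers of an E2F and a Dp subunit, and hold down genes for DNA synthesis and mitosis as cells leave the cell cycle. The Rb and E2F proteins also act at genes outside the cell cycle as parts of the dREAM complex. Indirect flight muscle is formed by fusion of myoblasts and is a stretch-activated fibre type with its own actin and troponin C isoforms. It burns carbohydrate through glycolysis, the glycerol phosphate shuttle and the citric acid cycle.

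Gene counts came to 57509409 and 54289618 in the WT libraries and to 53869217 and 73456049 in those labelled Rbf-KD. The 143 most abundant genes held 76.1% and 76.2% of the counts in WT and 62.8% and 63.4% in the other genotype, and mitochondrial genes held 22.3% and 20.1% against 16.1% and 16.8%. Levels are therefore given as counts scaled to a total of 1e6 per library (CPM) after TMM scaling, which sets the bulk of the genes equal between libraries. Without it, when counts are divided by the library total alone, the log2 fold change of the median gene moves from 0.10 to 1.21, with a median shift of 1.11 per gene. All fold changes are on the TMM scale, and a decrease smaller than that shift is an increase on the library-total scale. In bulk tissue, fewer cells of a type and less RNA per cell cannot be told apart.

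The targeted gene was read first. The Rbf gene (FBgn0015799), on chromosome X, was read at 187 and 203 counts (WT) against 1210 and 1454 (labelled Rbf-KD), or 4.69 and 5.61 CPM against 14.9 and 13.8 CPM after scaling. The gene was thus higher in both libraries labelled Rbf-KD (log2 1.48, SE 0.17, edgeR adjusted p = 0.00234), and its count went against the label. A count per transcript cannot tell reads of the hairpin from reads of the gene. The label is kept as the name of these libraries, and each direction below is that of the labels. All 7 flight muscle markers were read in all 4 libraries, and their summed level was 257158 and 289609 CPM in WT against 78403 and 79176 CPM under the Rbf-KD label.

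Of 10931 genes tested, 2128 were higher in the libraries labelled Rbf-KD, which is 19.5%, and 2225 were lower, which is 20.4% (edgeR quasi-likelihood F test, adjusted p under 0.05). All 2128 were also higher on the library-total scale, where 7462 genes passed as higher, whereas 548 of the 2225 were lower there. That scale raised every gene tested, by a log2 value of at least 0.39. An increase on the TMM scale therefore keeps its direction there by construction, and only decreases can be lost. On the TMM scale cell cycle and nucleolar genes and larval serum protein genes were higher, while genes of the contractile apparatus, of glycolysis and of mitochondrial respiration were lower. The decreases held unequally on the library-total scale. Median log2 values there were -1.44 for glycolysis, -0.43 for complex I, -0.090 for thick and thin filament and 0.020 for Z-disc genes. Every list is set against the median log2 fold change over all genes tested, 0.10. The calls of a list are to be read beside the shares over all genes, 19.5% higher and 20.4% lower. The levels of the genotypes did not overlap for 8116 of the 10931 genes tested, so a lack of overlap is common here. When 1 library was left out, 45 of the 158 genes named by rule lost their call at least once. They are named with the limits at the end, as are those that lost it under other alternatives. The 60 lists matched 1328 genes, of which 1202 passed the filter on low counts, and counts of a list are over its members that passed.

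**Figure D1:**
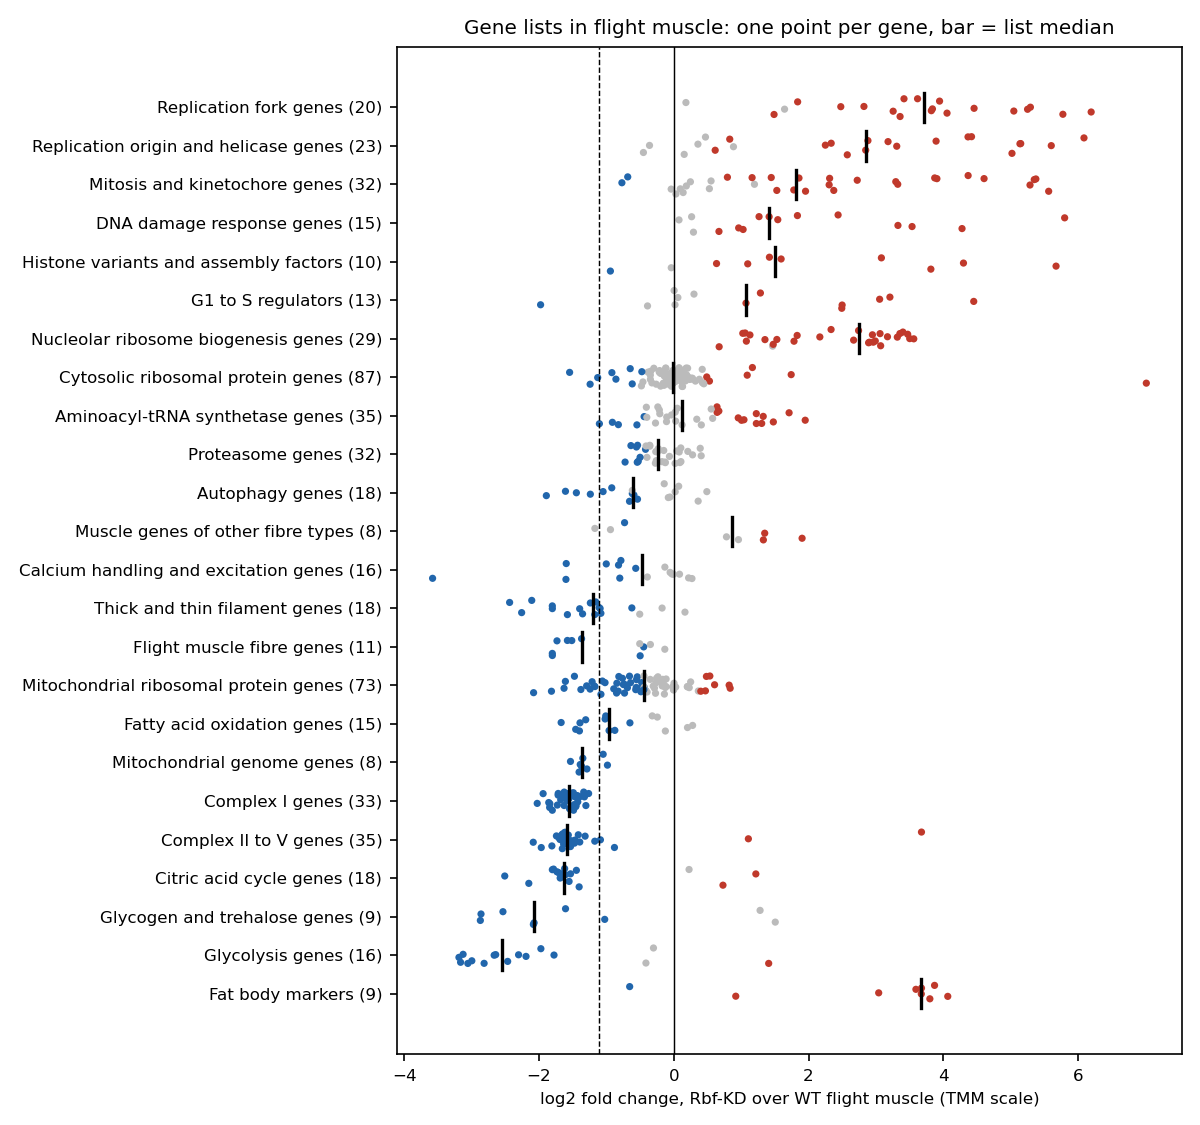
Log2 fold change of Rbf-KD over WT flight muscle on the TMM scale (x axis) for the members of 24 gene lists (y axis, number tested in brackets), 1 point per gene. Red points were called higher, blue lower and grey not called (edgeR adjusted p under 0.05), bars are list medians, and the dashed line is where a gene would be equal between genotypes on the library-total scale. Replication fork genes lie furthest right among the lists of cellular processes (median 3.72) and glycolysis genes furthest left (median -2.55). The ribosomal protein point at the far right, RpL22-like, had 0 counts in both WT libraries, so its fitted fold change has no fixed size.

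The partners of Rbf did not all move one way. E2f1, the activating E2F, was lower, at 64.2 and 76.7 CPM in WT against 37.5 and 31.9 CPM under the Rbf-KD label (log2 -1.02, SE 0.15, edgeR adjusted p = 0.00572), but on the library-total scale its log2 value was 0.10. E2f2, the repressive E2F of the dREAM complex, was higher, at 10.7 and 13.2 CPM against 23.2 and 22.6 CPM (log2 0.94, edgeR adjusted p = 0.00729). Dp, the partner subunit of both, was also higher (log2 0.56, edgeR adjusted p = 0.0173). E2f2 shares sequence with Mpp6 and Dp with Fsn in the annotation, so their counts are uncertain. Of 13 Rb, E2F and dREAM genes, 8 were higher and 2 lower (median 0.84), with Rbf itself counted among the higher ones. The DNA-binding subunit mip120 was among the higher ones, at 5.72 and 7.25 CPM against 19.1 and 19.3 CPM (log2 1.57), as was the histone-binding subunit Caf1-55 (log2 1.05).

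Genes that copy DNA were higher nearly throughout. Of 20 replication fork genes, 18 were higher and 0 lower (median 3.72), and of 23 origin and helicase genes, 17 were higher and 0 lower (median 2.85). PCNA, the sliding clamp of the polymerases, was read at 0.602 and 0.526 CPM in WT against 21.1 and 23.2 CPM under the Rbf-KD label. Both libraries labelled Rbf-KD lay far above both WT libraries (log2 5.29, SE 0.19, edgeR adjusted p = 0.000414). RnrL, the large subunit of ribonucleotide reductase that makes deoxynucleotides, went from 1.34 ± 0.260 against 50.8 ± 8.55 CPM (mean ± SD, n = 2 each; log2 5.25, edgeR adjusted p = 0.000480). PolE1, the catalytic subunit of the leading strand polymerase, was at 3.59 and 4.62 CPM against 54.7 and 71.5 CPM (log2 3.94), and RPA1, which coats single-stranded DNA, at 8.98 and 10.7 CPM against 49.0 and 60.5 CPM (log2 2.48). Among the helicase subunits, Mcm7 (log2 5.14, edgeR adjusted p = 0.000924), dpa (5.02), Mcm6 (2.88) and the helicase activator Cdc45 (2.57) were all higher.

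Several of the highest fold changes in the muscle belonged to genes that guard replication. By the rule for the 10 highest, these were RecQ4 (log2 6.29, SE 0.23, edgeR adjusted p = 0.000417), a helicase of replication initiation; Claspin (5.92), a mediator of the replication checkpoint; timeout (5.61), a relative of the clock gene timeless that acts in chromosome maintenance; and Rif1 (5.54), a regulator of replication timing. RecQ4 had 32 and 41 counts (WT) against 5658 and 8647 (labelled Rbf-KD), and Claspin had 18 and 13 counts (WT) against 1870 and 2770 (labelled Rbf-KD). Neither gene overlapped between genotypes, which was also so for most genes tested. The others were RnrL, PCNA and Mcm7, the cytochrome P450 gene Cyp4p2 (7.94), the fatty acid synthase gene FASN3 (6.05) and Drsl3 (8.37), a drosomycin-like peptide gene. Drsl3 had 5 and 2 counts (WT) against 4474 and 742 (labelled Rbf-KD). Its level differed between the libraries labelled Rbf-KD, and the test passed narrowly (SE 1.82, edgeR adjusted p = 0.0464) but not with limma-voom (adjusted p = 0.313).

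Regulators of entry into S phase were mostly higher, with 7 of 13 higher and 1 lower (median 1.07). CycE, the cyclin that starts S phase with Cdk2, was at 0.928 and 1.11 CPM in WT against 9.54 and 9.26 CPM under the Rbf-KD label, without overlap between genotypes (log2 3.21, SE 0.20, edgeR adjusted p = 0.000859). The Cdk inhibitor dap, which blocks the same kinase, was also higher, at 9.65 and 7.38 CPM against 19.1 and 22.5 CPM (log2 1.29, edgeR adjusted p = 0.00528), as was stg, the Cdc25 phosphatase that starts mitosis (log2 1.07, edgeR adjusted p = 0.00745). The lower member was Cks85A, a small Cdk-binding protein gene whose counts are uncertain because it overlaps other genes (log2 -1.98).

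Chromatin and mitosis genes followed in the same direction. Of 10 histone variants and assembly factors, 8 were higher and 1 lower (median 1.51). His2Av, the H2A variant of the fly, was at 5.84 and 6.86 CPM against 53.1 and 54.3 CPM (log2 3.08, SE 0.14), and the chaperone asf1 at 5.97 and 7.27 CPM against 19.6 and 20.4 CPM (log2 1.59). His3.3B, a replacement H3 gene, was higher by less (log2 0.63), and His4r, a replacement H4 gene, was the lower member (log2 -0.94, but 0.18 on the library-total scale). Of 32 mitosis and kinetochore genes, 21 were higher and 2 lower (median 1.82). The spindle checkpoint gene BubR1 had 10 and 1 counts (WT) against 452 and 603 (labelled Rbf-KD) (log2 5.29, SE 0.71, edgeR adjusted p = 0.00578). The condensin gene SMC2 was at 1.20 and 0.526 CPM against 5.63 and 5.85 CPM (log2 2.72), and Bub1, another checkpoint kinase gene, at 8.83 and 9.04 CPM against 15.5 and 15.5 CPM (log2 0.80).

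Of 15 DNA damage response genes, 12 were higher and 0 lower (median 1.41). The ATM kinase gene tefu was at 9.38 and 8.82 CPM against 45.4 and 53.2 CPM (log2 2.44, edgeR adjusted p = 0.000767). The break repair genes rad50 (0.727 and 0.664 CPM against 13.4 and 13.6 CPM, log2 4.28) and Ku80 (0.627 and 0.691 CPM against 6.82 and 6.42 CPM, log2 3.33) moved in the same direction. Of 14 cell death genes, 1 was higher and 4 were lower on the TMM scale (median -0.079), but 9 were higher and 1 lower on the library-total scale (median 1.04). The initiator caspase gene Dronc was lower (log2 -1.34, edgeR adjusted p = 0.00499), as was Buffy, a Bcl-2 family gene (log2 -1.65). The caspase inhibitor gene Diap1 had a log2 value of -0.48 and 0.64 on the library-total scale. The effector caspase gene Dcp-1, which overlaps pita and is uncertain, was higher from a low level, at 1.15 and 1.11 CPM against 2.34 and 2.26 CPM (log2 1.02).

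Genes of the germline list were mostly not called: 5 of 21 tested were higher and 1 lower (median 0.67). The higher share was near the 19.5% over all genes. The piRNA pathway genes spn-E (0.928 and 1.24 CPM against 10.6 and 11.6 CPM, log2 3.36) and AGO3 (1.03 and 0.857 CPM against 2.07 and 2.07 CPM, log2 1.135) were higher at low levels. The lower member was tud, a Tudor-domain gene (log2 -0.70, 0.41 on the library-total scale). Among the small RNA machinery that RNA interference and microRNAs use, 2 of 8 genes were higher and 1 lower. Calls were no more frequent there than among all genes tested. The list holds Dcr-2, and all animals carried a UAS-Dicer2 transgene, whose reads cannot be told from those of the gene. Dcr-1, the Dicer of the microRNA pathway, was higher (log2 0.96, edgeR adjusted p = 0.00379).

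The machinery that builds ribosomes was higher while the ribosomal proteins themselves stayed near the median of all genes. Of 29 nucleolar ribosome biogenesis genes, 28 were higher and 0 lower (median 2.74). The nucleolar list member l(2)k09022 was at 5.92 and 6.33 CPM in WT against 58.9 and 79.8 CPM under the Rbf-KD label, with no overlap between genotypes (log2 3.50, SE 0.20, edgeR adjusted p = 0.000707). Non1, a nucleolar GTPase gene, was at 81.3 and 73.3 CPM against 143 and 171 CPM (log2 1.02), and Tif-IA, an initiation factor of RNA polymerase I, at 15.3 and 17.5 CPM against 29.7 and 39.5 CPM (log2 1.08). Of 199 small nucleolar RNA genes, 58 were higher and 4 lower (median 0.71). Many of these lie in introns of other genes, and total RNA reads of unspliced hosts also count there.

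Of 87 cytosolic ribosomal protein genes, 6 were higher and 8 lower (median -0.013, and 1.10 on the library-total scale). RpL4 was lower, at 689 and 747 CPM against 253 and 239 CPM (log2 -1.55, edgeR adjusted p = 0.00122), and RpS4 higher, at 787 and 828 CPM against 1036 and 1230 CPM (log2 0.49, edgeR adjusted p = 0.0412). RpL22-like, a paralogue of a ribosomal protein gene that was singled out after its values were seen, had 0 and 0 counts (WT) against 22 and 23 (labelled Rbf-KD). Aminoacyl-tRNA synthetase genes, which charge tRNAs, included 13 higher and 5 lower members of 35 (median 0.12), and IleRS and LeuRS were among the higher ones (log2 1.01 and 1.04). Of 31 translation factor genes, 6 were higher and 7 lower (median -0.12), shares near those of all genes tested (19.5% and 20.4%). The paired genes for elongation factor 1 alpha went opposite ways on the TMM scale. The general form eEF1alpha1 was at 468 and 510.3 CPM against 1027 and 829 CPM (log2 0.92, edgeR adjusted p = 0.00799), and eEF1alpha2 at 2271 and 2282 CPM against 1084 and 1550 CPM (log2 -0.79, edgeR adjusted p = 0.0262, but log2 0.32 on the library-total scale).

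**Figure D2:**
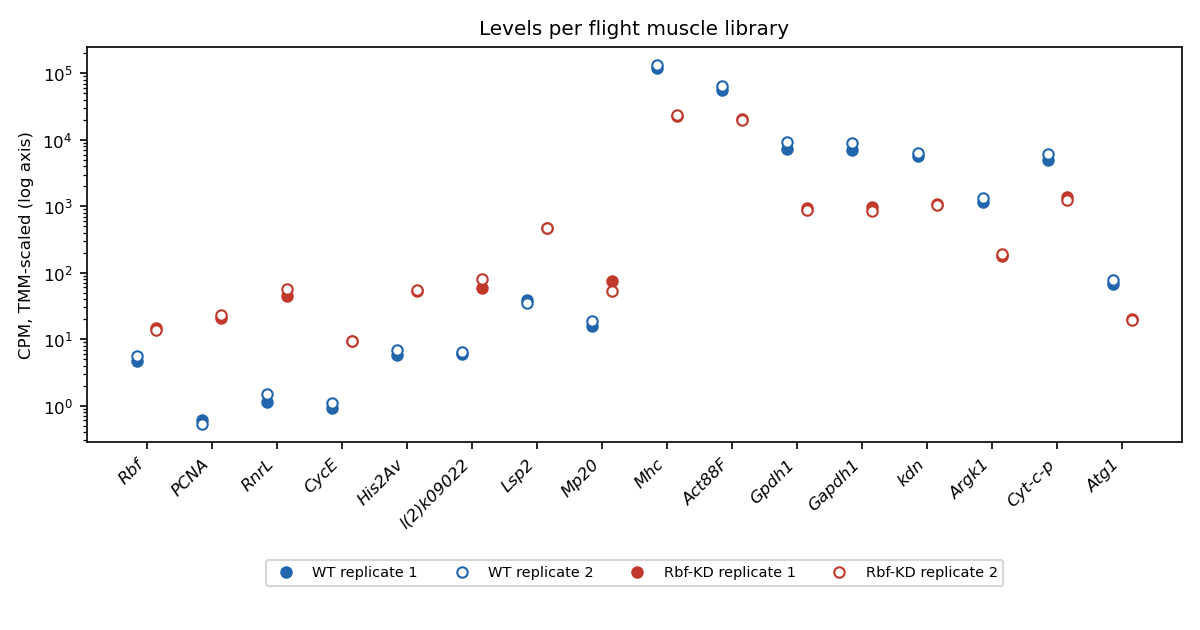
Level of 16 genes in each flight muscle library, in TMM-scaled CPM on a log axis (y) by gene (x), with blue circles for WT and red for Rbf-KD libraries, filled for replicate 1 and open for replicate 2. From Rbf to Mp20 both Rbf-KD libraries lie above both WT libraries, and from Mhc to Atg1 both lie below.

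On the TMM scale most genes of the contractile apparatus were lower. Of 18 thick and thin filament genes, 0 were higher and 15 lower (median -1.20), against 3 higher and 7 lower on the library-total scale (median -0.090). Mhc, the muscle myosin heavy chain, was at 119295 and 133631 CPM in WT against 23173 and 23581 CPM under the Rbf-KD label. Its fall passed the test (log2 -2.44, SE 0.12, edgeR adjusted p = 0.000610) and kept its direction on the library-total scale (log2 -1.32). In a fit of all 10 libraries the call of Mhc was lost (edgeR adjusted p = 0.0655), and its difference from notum was not called (interaction adjusted p = 0.156). The myosin regulatory light chain gene Mlc2 was at 50227 and 53322 CPM against 21950 and 24009 CPM (log2 -1.17, -0.058 on the library-total scale). Z-disc genes, which anchor the thin filaments, included 0 higher and 6 lower members of 9 (median -1.09, but 0.020 on the library-total scale). Zasp67 was at 993 and 1171 CPM against 281 and 283 CPM (log2 -1.94), Zasp52 at 6636 and 6927 CPM against 2344 and 2869 CPM (log2 -1.38), and the LIM protein gene Mlp60A had a log2 value of -1.09 and of 0.020 on the library-total scale.

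Of 11 genes of the flight muscle fibre type, 8 were lower and 0 higher (median -1.37), against 5 lower and 4 higher on the library-total scale (median -0.26). Act88F, the actin of this fibre, was at 55339 and 65314 CPM in WT against 20761 and 19646 CPM under the Rbf-KD label (log2 -1.58, SE 0.13, edgeR adjusted p = 0.00124). The myosin-binding protein gene fln was at 12215 and 14866 CPM against 4162 and 3606 CPM (log2 -1.80) and TpnC4, the troponin C of stretch activation, at 5195 and 6046 CPM against 2068 and 1870 CPM (log2 -1.51). The fate gene salm, singled out after its values were seen, was at 177 and 203 CPM against 166 and 181 CPM, with overlapping genotypes, and was not called (log2 -0.13, edgeR adjusted p = 0.476, but higher on the library-total scale with log2 0.98). Genes of other fibre types were divided, with 3 of 8 higher and 1 lower (median 0.87). Their summed level was 2189 and 908 CPM in WT against 983 and 1022 CPM under the Rbf-KD label, with overlapping genotypes. Mp20, a calponin-like gene of synchronous muscle, was at 15.6 and 19.1 CPM against 76.4 and 53.4 CPM (log2 1.90, edgeR adjusted p = 0.00291). The actin gene Act57B, which overlaps a small nucleolar RNA gene, was higher (log2 1.35, edgeR adjusted p = 0.0322), as was the troponin C gene TpnC73F (log2 1.33). The lower member was the actin gene Act87E (log2 -0.73, but 0.39 on the library-total scale).

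Among the transcripts of sarcomere genes counted above 10 CPM, those of Prm differed most in their fold change. Prm makes paramyosin and, from an internal promoter, the shorter miniparamyosin. Transcript FBtr0306639 went from a mean of 1493 to 172.5 CPM (log2 -3.11) and FBtr0076594 from 1661 to 711 CPM (log2 -1.22), a range of 1.89. Every other such gene had a range of at most 0.52, found in the tropomyosin gene Tm1. Reads are shared between transcripts of a gene, so these values are a description.

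Genes that couple excitation to contraction were lower in part. Of 16 calcium handling and excitation genes, 0 were higher and 8 lower (median -0.48, but 0.63 on the library-total scale). Orai, the store-operated calcium channel gene, singled out after its values were seen, had 4455 and 4463 counts (WT) against 732 and 1123 (labelled Rbf-KD) (log2 -3.58, edgeR adjusted p = 0.000480). The potassium channel gene Sh was at 312 and 292 CPM against 103 and 97.4 CPM (log2 -1.595, edgeR adjusted p = 0.00111). The calcium release channel gene RyR (log2 -0.78) and the junctophilin gene jp (log2 -1.002) were lower on the TMM scale and at 0.32 and 0.11 on the library-total scale. At the nerve-muscle contact, 1 of 7 receptor and scaffold genes was higher and 3 were lower. The scaffold gene dlg1 was lower (log2 -1.602, edgeR adjusted p = 0.00156), and the receptor subunit gene GluRIID, which overlaps GluRIIE, was higher at a very low level (log2 1.88).

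Matrix genes stood out from the sarcomere. Of 20 integrin attachment and matrix genes, 8 were higher and 3 lower (median 0.37). The collagen IV chains Col4a1 (168 and 215 CPM against 319.7 and 327 CPM, log2 0.75) and vkg (146 and 183 CPM against 267 and 285 CPM, log2 0.74) and the laminin gene LanA (log2 0.71) were higher. The integrin gene if, whose product holds muscle to tendon, had a log2 value of -0.56, and of 0.55 on the library-total scale. Blood cells also express the collagen and laminin genes, and the summed hemocyte markers, given below, moved in the same direction. The summed fat body markers, also given below, rose by more. The part of blood cells or fat body in the result was not tested.

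The reading of myoblast genes depended on the scale. Of 11 myoblast identity genes, 2 were higher and 3 lower on the TMM scale (median 0.18), while 10 were higher and 0 lower on the library-total scale (median 1.30). Mef2, the muscle transcription factor whose enhancer drives Gal4 here, was at 203 and 191 CPM in WT against 115.5 and 111 CPM under the Rbf-KD label (log2 -0.80, SE 0.12, edgeR adjusted p = 0.00580), but on the library-total scale its log2 value was 0.31. The direct flight muscle and myoblast factor ct was higher, at 4.41 and 4.09 CPM against 12.7 and 11.1 CPM (log2 1.48, edgeR adjusted p = 0.00222). The FGF receptor gene htl (log2 -0.76) and the wing and flight muscle factor vg (log2 -0.74) were lower on the TMM scale and at 0.36 and 0.37 on the library-total scale. Of 16 fusion genes, 0 were higher and 4 lower (median -0.26, but 0.85 on the library-total scale). The share that was lower was near the 20.4% over all genes. The myoblast transcription factor gene lmd had 237 and 225 counts (WT) against 27 and 45 (labelled Rbf-KD) (log2 -3.99, SE 0.26, edgeR adjusted p = 0.000859), and blow, which overlaps Vps13, had a log2 value of -1.01, or 0.10 on the library-total scale.

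Energy metabolism was lower across its pathways. In glycolysis 13 of 16 genes were lower and 1 higher (median -2.55, and -1.44 on the library-total scale). Gpdh1, the cytosolic glycerol phosphate dehydrogenase of the shuttle that flight depends on, was at 7365 and 9251 CPM in WT against 956 and 868 CPM under the Rbf-KD label. The groups did not overlap (log2 -3.19, SE 0.17, edgeR adjusted p = 0.000696). Gapdh1 was at 7125 and 9050 CPM against 968 and 838 CPM (log2 -3.16), and the aldolase gene Ald1 at 7511 and 8124 CPM against 1995 and 1991 CPM (log2 -1.97). The higher member was Hex-C, a hexokinase gene read at a low level, 1.605 and 1.47 CPM against 4.57 and 3.60 CPM (log2 1.41, edgeR adjusted p = 0.00898). Of 9 glycogen and trehalose genes, 7 were lower and 0 higher (median -2.07, and -0.95 on the library-total scale). These included the glycogen phosphorylase gene Glyp (log2 -1.61), the glycogen synthase gene Glys (-2.08) and the branching enzyme gene AGBE (-2.53), so genes of glycogen breakdown and synthesis were lower together.

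In the citric acid cycle 15 of 18 genes were lower and 2 higher (median -1.63, and -0.52 on the library-total scale). The citrate synthase gene kdn was at 5766 and 6317 CPM in WT against 1072 and 1052 CPM under the Rbf-KD label (log2 -2.51, SE 0.12, edgeR adjusted p = 0.000654). Idh3a, a subunit of isocitrate dehydrogenase, was at 3683 and 4133 CPM against 1140 and 1129 CPM (log2 -1.78), and Mdh2, the mitochondrial malate dehydrogenase, at 3582 and 4238 CPM against 1360 and 1305 CPM (log2 -1.55). Mdh1, the cytosolic form, was higher, at 31.2 and 28.2 CPM against 53.5 and 45.1 CPM (log2 0.73, edgeR adjusted p = 0.0124). In proline and glutamate metabolism 7 of 14 genes were lower and 3 higher (median -0.58, but 0.53 on the library-total scale). Argk1, the arginine kinase that buffers ATP in insect muscle, was at 1144 and 1340 CPM against 176 and 189 CPM (log2 -2.77). The malic enzyme gene Men-b (log2 -2.07) and the proline dehydrogenase gene slgA (-1.33) were lower as well.

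The respiratory chain was lower in nearly all its parts. All 33 nuclear genes of complex I tested were lower (median -1.55, and -0.43 on the library-total scale), among them ND-75 (2038 and 2569 CPM against 738 and 755 CPM, log2 -1.63), ND-49 (log2 -1.30) and ND-39 (log2 -1.45). Of 35 genes of complexes II to V and cytochrome c, 33 were lower and 2 higher (median -1.59, and -0.47 on the library-total scale). Cyt-c-p, the main cytochrome c gene, was at 5041 and 6061 CPM in WT against 1373 and 1244 CPM under the Rbf-KD label (log2 -2.09, SE 0.15, edgeR adjusted p = 0.000943). The complex III gene UQCR-C1 had a log2 value of -1.63, and the ATP synthase gene blw of -1.09, or 0.027 on the library-total scale. The complex IV gene COX7A was higher from a low level, at 11.2 and 9.71 CPM against 24.7 and 20.4 CPM (log2 1.11).

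The mitochondrial genome followed its nuclear partners. All 8 tested protein-coding genes of this list were lower (median -1.36, and -0.25 on the library-total scale). The cytochrome oxidase gene mt:CoI was at 95982 and 93879 CPM against 38518 and 39228 CPM (log2 -1.29, SE 0.10), mt:CoIII at 54034 and 50156 CPM against 19809 and 20006 CPM (log2 -1.39), and mt:CoII had a log2 value of -1.35. Of 73 mitochondrial ribosomal protein genes, 36 were lower and 7 higher (median -0.44, but 0.68 on the library-total scale). mRpL52 was lower (log2 -1.63, -0.51 on the library-total scale), mRpL12 had a log2 value of -0.69 or 0.43 on that scale, and mRpS6 was higher (log2 0.40).

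Other mitochondrial functions were lower in part. Fatty acid oxidation genes included 10 lower and 0 higher members of 15 (median -0.96, but 0.16 on the library-total scale), with the acyl-CoA dehydrogenase gene Acadvl at a log2 value of -1.02 and 0.10 on that scale. Of 18 mitochondrial dynamics and quality genes, 10 were lower and 5 higher (median -0.53, but 0.59 on the library-total scale). The cation exchanger gene Letm1 (log2 -2.08) and the mitophagy kinase gene Pink1 (-1.92) were lower on both scales, the mitofusin gene Marf had a log2 value of -0.98 and 0.14 on the library-total scale, and the mitochondrial chaperonin gene Hsp60A was higher (0.74). Of 14 antioxidant genes, 10 were lower and 0 higher (median -0.87, but 0.25 on the library-total scale). They included GstS1, a glutathione transferase gene strongly read in flight muscle, at 17258 and 20233 CPM against 7019 and 7182 CPM (log2 -1.40), and the mitochondrial superoxide dismutase gene Sod2 (log2 -1.75). Fatty acid synthesis and storage genes were divided, with 3 higher and 4 lower of 12 (median -0.023), and the desaturase gene Desat1 was lower (log2 -1.25).

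Growth and turnover pathways were read next. Of 20 insulin, TOR and Myc genes, 3 were higher and 8 lower (median -0.41, but 0.70 on the library-total scale). The kinase genes S6k (log2 -0.82) and Pdk1 (-0.84) and the transcription factor gene foxo (-0.93) were lower on the TMM scale and at 0.30, 0.27 and 0.19 on the library-total scale. Autophagy genes included 10 lower and 0 higher members of 18 (median -0.60, but 0.51 on the library-total scale). The initiating kinase gene Atg1, at 68.6 and 76.5 CPM against 19.8 and 19.3 CPM (log2 -1.89, edgeR adjusted p = 0.000859), and Atg8a, the ubiquitin-like protein of the autophagosome (log2 -1.45), were lower on the TMM scale. On the library-total scale Atg1 still passed (log2 -0.77) and Atg8a did not (log2 -0.33, edgeR adjusted p = 0.0619). Of 32 proteasome genes, 0 were higher and 8 lower (median -0.24, but 0.88 on the library-total scale). The share that was lower was near that of all genes tested (20.4%).

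Stress and immune genes showed single large changes rather than a common one. Of 18 cytosolic chaperone genes, 2 were higher and 0 lower: the constitutive chaperone gene Hsc70-4 (log2 0.86) and the small heat shock gene l(2)efl, at 1.18 and 0.857 CPM against 10.04 and 7.15 CPM (log2 3.07). Of 14 endoplasmic reticulum stress genes, 2 were higher and 1 lower, the latter being Xbp1 (log2 -0.91, but 0.20 on the library-total scale). Of 13 JNK and JAK-STAT genes, 1 was higher and 5 were lower (median -0.48, but 0.63 on the library-total scale). The cytokine gene upd3 had 0 and 0 counts (WT) against 46 and 42 (labelled Rbf-KD) (edgeR adjusted p = 0.00842). The mean of the libraries labelled Rbf-KD was 6.10-fold the mean WT floor, taken as 3 counts per WT library. The Fos gene kay was lower (log2 -1.142, -0.031 on the library-total scale). Of 22 antimicrobial and immune genes, 5 were higher, a share near the 19.5% over all genes, and 2 were lower. The stress peptide gene TotA was at 1.05 and 1.41 CPM against 23.2 and 26.3 CPM (log2 4.33, edgeR adjusted p = 0.000622) and the NF-kappaB gene Rel at 24.2 and 17.9 CPM against 35.0 and 36.7 CPM (log2 0.77).

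Of 19 ecdysone response genes, 3 were higher and 7 lower (median -0.12). Blimp-1, an ecdysone-induced repressor that times pupal development, had 9431 and 7781 counts (WT) against 233 and 1345 (labelled Rbf-KD). Both WT libraries were high and both others low, but the latter differed from each other (log2 -4.85, SE 0.93, edgeR adjusted p = 0.0302). Blimp-1 lost its call without the filter on low counts (edgeR adjusted p = 0.0877) and with the replicate block (0.0781). The early ecdysone genes Eip74EF (318 and 317 CPM against 114 and 155 CPM, log2 -1.24) and Eip75B (181 and 174 CPM against 57.8 and 82.9 CPM, log2 -1.33) were lower. The calls among Cpr cuticular protein genes and clock genes were no more frequent than among all genes tested. Cuticular protein genes of the Cpr family included 2 higher and 5 lower of 32, with Cpr66D lower (log2 -1.84) and Cpr49Ac higher (log2 3.63). Of 8 clock genes, 1 was higher, tim (log2 1.17), and 2 were lower. Whether the genotypes differed in developmental stage at collection was not tested.

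The 10 lowest genes by the rule were of mixed function. Blimp-1 led them, and Cht5, a chitinase gene of moulting cuticle, had 19048 and 17422 counts (WT) against 1199 and 3250 (labelled Rbf-KD) (log2 -4.39, SE 0.43, edgeR adjusted p = 0.00314). The gene b, an aspartate decarboxylase that makes beta-alanine for cuticle tanning, was at 204 and 193 CPM against 11.98 and 12.01 CPM (log2 -4.05). Cln3, a gene of lysosomal function, was at 106 and 113 CPM against 5.18 and 4.52 CPM (log2 -4.50), and the protein kinase C gene Pkcdelta at 133 and 129 CPM against 6.395 and 9.13 CPM (log2 -4.08). SmydA-7, a SET and MYND domain gene, was at 237 and 276 CPM against 22.2 and 18.9 CPM (log2 -3.64), and the tyrosine phosphatase gene Ptp36E at 265 and 269 CPM against 9.29 and 32.1 CPM (log2 -3.69). The others were the P450 gene Cyp4e3 (log2 -4.43), whe (-4.38) and Sfp53D (-4.80), which is named as a seminal fluid protein gene. None of the 10 had overlapping genotypes, but this held for 8116 of all 10931 genes tested. All remained lower on the library-total scale, where the shift per gene was at most 1.17. Both results are largely set by the choice of these genes for their low fold changes.

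Markers of other tissues were read in every library and several differed by genotype. Fat body markers were higher, with 8 of 9 higher and 1 lower (median 3.67) and a summed level of 356 and 308 CPM in WT against 3222 and 2984 CPM under the Rbf-KD label. The larval serum protein genes Lsp2 (38.4 and 35.5 CPM against 473 and 469 CPM, log2 3.67, edgeR adjusted p = 0.000417) and Lsp1beta (25.4 and 28.3 CPM against 387 and 361 CPM, log2 3.80) and the serum protein receptor gene Fbp1 (62.2 and 52.9 CPM against 659 and 813 CPM, log2 3.68) were among the higher members. The lipid transfer gene Apoltp had a log2 value of -0.65, and of 0.46 on the library-total scale. Of 10 hemocyte markers, 4 were higher and 0 lower, with a summed level of 829.7 and 919 CPM in WT against 1322 and 1396 CPM under the Rbf-KD label. The clotting gene Hml (log2 0.95), the matrix gene Ppn (0.54) and the blood GATA factor gene srp (0.85) were among them.

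Of 8 tracheal markers, 0 were higher and 6 lower (median -1.0, but 0.12 on the library-total scale), and their summed level was 525 and 580.2 CPM in WT against 262 and 267 CPM under the Rbf-KD label. The list member uif was lower (log2 -1.47, -0.36 on the library-total scale), and the luminal matrix genes pio (log2 -0.89) and Gasp (-1.05) were at 0.23 and 0.063 on the library-total scale. Of 4 oenocyte markers, 0 were higher and 2 lower, with the elongase gene bond at 88.2 and 139.6 CPM against 29.5 and 33.4 CPM (log2 -1.85). Of 8 tendon and epidermis markers, 0 were higher and 2 lower, a share near that of all genes: the beta-alanyl transferase gene e (log2 -3.27) and the tyrosine hydroxylase gene ple (log2 -0.91, but 0.21 on the library-total scale). The part of tracheal, fat body or epidermal RNA in the results for other lists was not tested.

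Few markers of nervous tissue and gut were called, although their summed levels did not overlap between genotypes. Of 10 neuron markers, 1 was higher, the sodium pump gene nrv3 (log2 1.47, edgeR adjusted p = 0.0424), and 0 were lower, with a summed level of 99.5 and 85.9 CPM in WT against 110.2 and 193 CPM under the Rbf-KD label. Of 7 glia markers, 1 was lower, the glutamate transporter gene Eaat1 (log2 -0.81, but 0.30 on the library-total scale). Of 5 gut markers, 1 was higher, the mannosidase gene LManII (log2 1.55), and the summed level was 12.2 and 21.9 CPM in WT against 67.9 and 30.7 CPM under the Rbf-KD label. The 4 Malpighian tubule markers tested summed to 12.8 and 25.8 CPM in WT against 22.02 and 17.9 CPM under the Rbf-KD label, with overlapping genotypes. The summed level of the 4 male germline markers was at most 1.99 CPM in any library. Of 4 sex markers, 2 were lower, including the dosage compensation RNA gene lncRNA:roX2 (log2 -0.84, but 0.27 on the library-total scale).

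**Figure D3:**
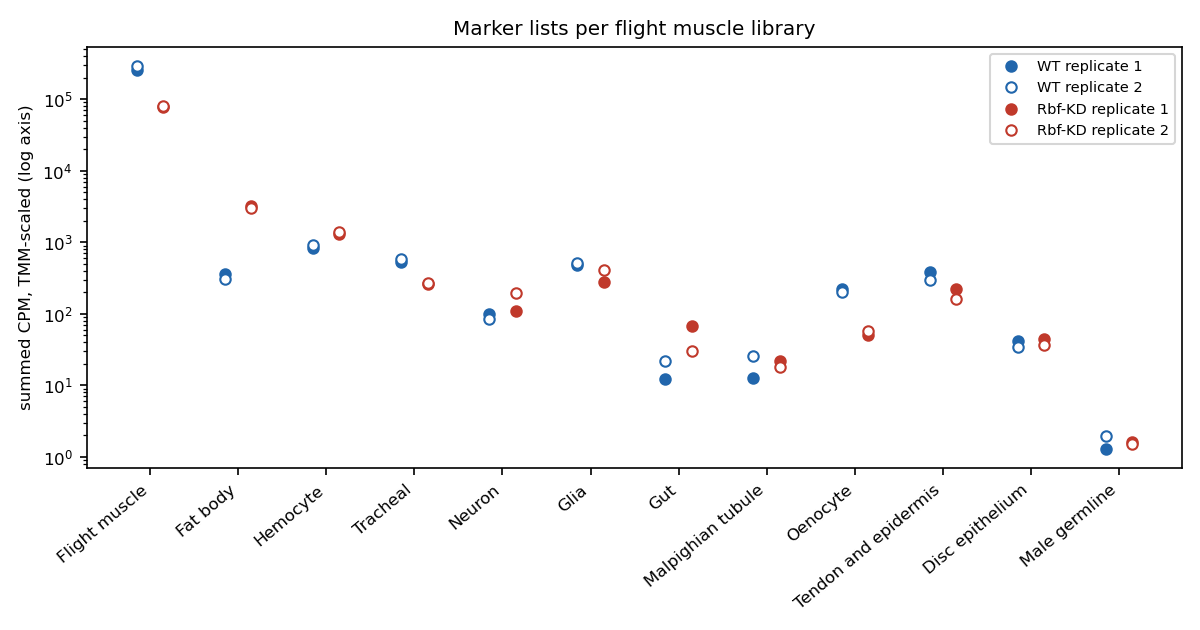
Summed level of 12 marker lists in each flight muscle library, in TMM-scaled CPM on a log axis (y) by tissue or cell type (x), with blue circles for WT and red for Rbf-KD libraries, filled for replicate 1 and open for replicate 2. Fat body markers lie at 356 and 308 CPM in WT and at 3222 and 2984 CPM in the Rbf-KD libraries, flight muscle markers lie highest in every library, and male germline markers lie lowest.

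The effect of genotype in flight muscle was set against that in notum, the larval tissue that holds the precursors of the same muscle, in a fit of all 10 libraries. It differed for 4069 of 13407 genes, which is 30.3% (edgeR interaction test, adjusted p under 0.05). Tissue and stage change together here and cannot be told apart. The driver acts in the muscle lineage, and the part of other cells in the notum values was not tested. For the cell cycle, the difference was called for 19 of 20 replication fork genes, 18 of 23 origin and helicase genes and 26 of 34 mitosis genes. The median log2 values of these lists in notum were 0.041, 0.0086 and -0.044. Over all genes the notum median was 0.028, and 14 of 13407 genes were called there, so values near 0 in notum are not particular to these lists. PCNA was at -0.060 in notum and 5.29 in muscle (interaction adjusted p = 1.40e-06), and Claspin at 0.14 and 5.92 (6.69e-07).

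The difference was called for 6 of 18 thick and thin filament genes, a share near that of all genes, and for 14 of 16 glycolysis genes and 33 of 33 complex I genes. It was called for 29 of 29 nucleolar genes. Whether the lists differ from each other in this was not tested. The medians of these 4 lists in notum were -0.078, -0.12, 0.025 and -0.013. Of the 25 genes named for the Rbf pathway or for the highest or lowest fold changes, the difference was not called for Cyp4p2, Dp, Mef2, Ptp36E and whe. Cyp4p2 was higher in the libraries labelled Rbf-KD of both tissues, with a log2 value of 6.21 in notum (edgeR adjusted p = 0.0454) and 7.94 in muscle (interaction adjusted p = 0.381). Rbf itself had a log2 value of -0.22 in notum, which was not called, against 1.48 in muscle (interaction adjusted p = 0.00188).

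**Figure D4:**
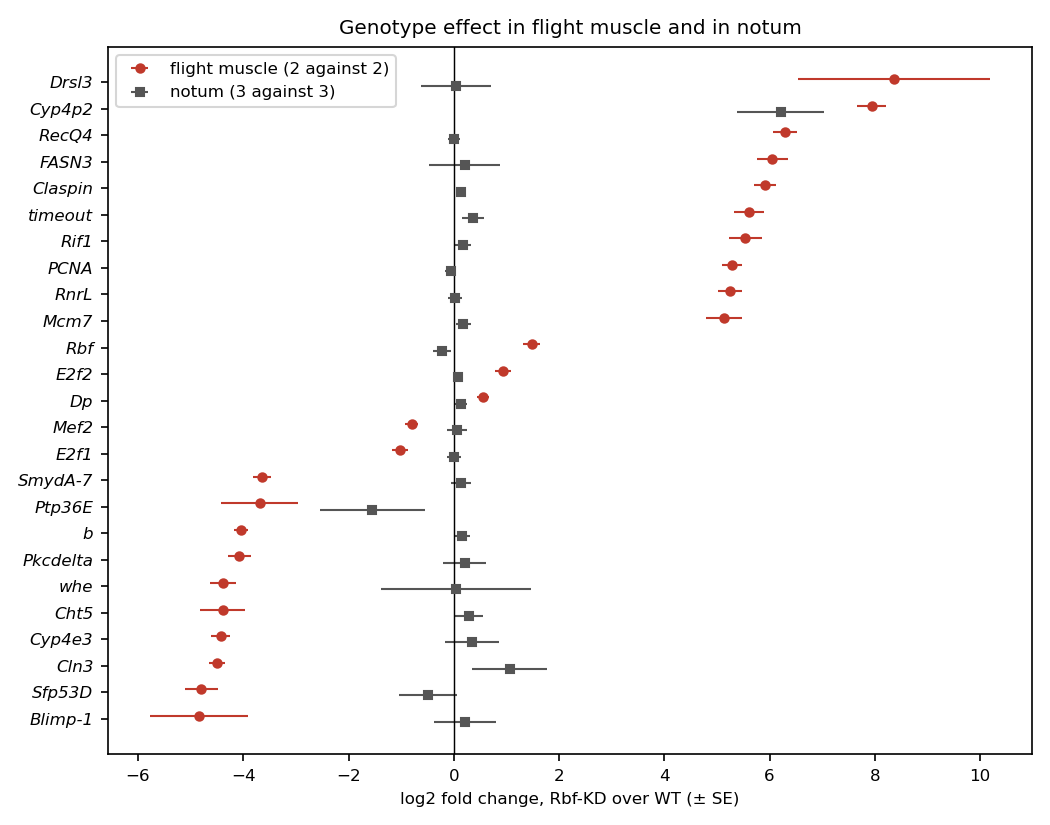
Log2 fold change of Rbf-KD over WT with its SE (x axis) for the 25 genes named for the Rbf pathway or for the highest or lowest fold changes (y axis), in flight muscle (red circles, 2 libraries per genotype) and in notum (grey squares, 3 per genotype). The notum values lie near 0 for most genes, and Cyp4p2 is high in both tissues, at 7.94 and 6.21.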

How the data were processed

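Total RNA was depleted of ribosomal RNA with Ribo-Zero and made into libraries with a stranded TruSeq kit, per the labels' protocols. The authors deposited 1 table of raw counts, with no normalization, for 29173 transcripts in 10 libraries. Per the submitters' processing notes, TopHat2 2.1.1 and Bowtie2 2.3.2 are listed beside build BDGP5, with featureCounts of the Subread package, DESeq2 1.14.1, FastQC and bcl2fastq 2.17.1.14. The strand setting and the treatment of shared reads are not given in the sources used here, so genes that overlap another gene are called uncertain. FlyBase transcript identifiers were matched to genes in the Ensembl BDGP6.54 annotation. In all 27011 transcripts (92.6%) matched 15259 genes. The 2162 unmatched transcripts took 16.6% to 20.3% of a flight muscle library's counts and stayed out. Builds differ, so no coordinates are given. The transcript with the highest total stood for its gene.

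The fit used edgeR 4.0.16 (R 4.3.3) on the raw counts, in a model of the 4 flight muscle libraries alone, 2 against 2. The filter was filterByExpr with a minimum count of 10 and a minimum total of 15. Libraries were TMM-scaled (factors 0.694 and 0.666 in WT, 1.51 and 1.43 in Rbf-KD) and genes tested by edgeR's quasi-likelihood F test with robust dispersions and Benjamini-Hochberg adjustment over all 10931 genes. Adjusted p-values are edgeR's. The difference between tissues was tested in a fit of all 10 libraries as 4 groups. Alternatives were library-total, RLE and upper-quartile scaling, DESeq2 1.42.0, limma-voom (limma 3.58.1), no filter, counts summed over transcripts, a fit of all libraries, a block on the replicate number and leaving out each library. A count of 0 allows up to 3 counts, which covers counting error only.

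The comparison, the 46 gene lists and the 14 marker lists were chosen with earlier results of these data known. From the lists, second spellings of a gene and Tk, mthl1, Alien, Bar and CapZ were dropped after the files were read, because the name belonged to another kind of gene, was ambiguous or stood for a gene already listed. Listed genes without a match, among them Strn-Mlck, trol, vas and 5 mitochondrial genes, were not analysed here. The rule for named genes took Rbf, E2f1, E2f2, Dp and Mef2, the called protein-coding genes with the 10 largest increases and the 10 largest decreases that have a proper name, at least 20 CPM in the higher group and no overlapping gene. From each list it took up to 3 called members of highest mean CPM in the direction with more calls and up to 1 in the other. It took 203 genes, of which 158 are named, a subset chosen after values were seen. Interaction results are given by gene for 25 of them, also chosen then.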

Additional observations from a re-analysis of the deposited data

Results flagged for a closer look

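For 20 of the 25 genes named for the Rbf pathway or for the highest or lowest fold changes, the effect of genotype in flight muscle differed from that in notum (edgeR interaction test over all 10 libraries, adjusted p under 0.05). Values in brackets are the log2 effect in muscle minus that in notum. Among the genes highest in the muscle libraries labelled Rbf-KD the difference was positive for Claspin (5.83), Drsl3 (8.38), FASN3 (5.91), Mcm7 (5.02), PCNA (5.41), RecQ4 (6.35), Rif1 (5.43), RnrL (5.29) and timeout (5.31). Among the lowest it was negative for Blimp-1 (-4.98), Cht5 (-4.62), Cln3 (-5.50), Cyp4e3 (-4.72), Pkcdelta (-4.22), Sfp53D (-4.25), SmydA-7 (-3.72) and b (-4.15). Of the pathway genes it was called for Rbf (1.76), E2f1 (-0.96) and E2f2 (0.92). Of the 25 genes, 20 were chosen for their fold change in muscle, and their difference from notum is partly set by that choice. The remaining genes of the text were not examined singly for this difference.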

How the results depend on the processing

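Scaling limited these results most. With library-total scaling 7462 genes were higher and 548 lower, and the difference between tissues was called for 7354 genes, against 2128, 2225 and 4069 with TMM. Of the 158 named genes, 28 changed sign there (log2 E2f1 0.10, Mef2 0.31, Mlp60A 0.020, Act87E 0.39, RyR 0.32, jp 0.11, if 0.55, htl 0.36, vg 0.37, blow 0.10, blw 0.027, mRpL12 0.43, Acadvl 0.10, Marf 0.14, His4r 0.18, Diap1 0.64, tud 0.41, eEF1alpha2 0.32, S6k 0.30, foxo 0.19, Pdk1 0.27, Xbp1 0.20, Apoltp 0.46, pio 0.23, Gasp 0.063, Eaat1 0.30, ple 0.21, lncRNA:roX2 0.27). Among lists with most members called lower on the TMM scale, some medians also changed sign (Z-disc genes 0.020, Fatty acid oxidation genes 0.16, Mitochondrial dynamics and quality genes 0.59, Antioxidant genes 0.25, Autophagy genes 0.51, Tracheal markers 0.12). Medians of lists with fewer such calls changed sign too, among them those of calcium handling genes (0.63) and proteasome genes (0.88). These changes follow from the shift between the scales, since every gene tested is higher on the library-total scale than on the TMM scale. Which scale is nearer to RNA per cell cannot be told from these counts. The direction of all 158 held in every other alternative, and 108 also kept their call there.

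RLE scaling gave 1996 higher and 2381 lower, upper-quartile scaling 2588 and 1868, DESeq2 2079 and 2546, limma-voom 1913 and 2207, no filter 2159 and 2158, sums over transcripts 2001 and 2206, and a fit of all libraries 3021 and 2281. Leaving out 1 library gave between 1151 and 1305 genes higher and between 1307 and 1751 lower. The higher count moved by over 1.5 times without the first (1193) or second (1305) WT library or the first (1151) or second (1276) Rbf-KD library, and the lower count without the first (1307) or second (1388) Rbf-KD library. In such fits a lone library is assumed to vary like the other group, and fewer samples are fitted. Of the named genes, 45 lost their call without at least 1 library (adjusted p up to 0.153): AGO3, Dcp-1, Diap1, GluRIID, mRpS6 without any 1 of the 4, and Act57B, Apoltp, BubR1, Caf1-55, Col4a1, Dp, Drsl3, Eaat1, Hex-C, His3.3B, Hsc70-4, IleRS, LManII, LanA, LeuRS, Mdh1, Pdk1, Ppn, Ptp36E, Rel, RpS4, RyR, Tif-IA, TpnC73F, Xbp1, blow, eEF1alpha1, eEF1alpha2, htl, if, lncRNA:roX2, mRpL12, nrv3, ple, srp, stg, tud, upd3, vg, vkg without 1 to 3 of them. Calls were also lost, at the adjusted p in brackets, with RLE scaling (mRpS6 0.0524, RpS4 0.0535), the fit of all libraries (Mhc 0.0655, Mp20 0.0603, RyR 0.107, jp 0.331, GluRIID 0.0903, eEF1alpha2 0.114, tim 0.0823, Apoltp 0.224, Ppn 0.119, Eaat1 0.083, ple 0.237, lncRNA:roX2 0.183), library-total scaling (Mlc2 0.497, Zasp52 0.0651, ND-49 0.157, ND-39 0.0521, mt:CoI 0.0894, mt:CoII 0.0619, slgA 0.126, Desat1 0.266, Dronc 0.257, Atg8a 0.0619, kay 0.814, Eip74EF 0.455, Eip75B 0.277, uif 0.0615), limma-voom (Drsl3 0.313, TpnC73F 0.0615, nrv3 0.0603), no filter (Drsl3 0.116, Ptp36E 0.0835, Blimp-1 0.0877, nrv3 0.0662), the replicate block (Ptp36E 0.0522, Blimp-1 0.0781, Act57B 0.102, TpnC73F 0.0566, mRpS6 0.0721, Dcp-1 0.0666, AGO3 0.0601, RpS4 0.0506, nrv3 0.0978), sums over transcripts (mRpS6 0.0563) and upper-quartile scaling (RyR 0.0502, if 0.0506, Diap1 0.062, eEF1alpha2 0.0553, Eaat1 0.0561, ple 0.0502).

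Replicate numbers are not said to mark a shared source, and deviations of same-numbered libraries correlated at -0.216. With the replicate block 1727 genes were higher and 1935 lower, and 4431 differed between tissues (RLE scaling 4157). Pairing the numbers crosswise, an alternative chosen after seeing the data, gave 2095 and 2108. The planned description of promoter motifs was not run, since no promoter sequences were used here. With 2 libraries per genotype, genes near the threshold depend on single libraries, and depth limits genes under about 10 counts.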

Other observations

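Some tissue-specific genes differed widely between the libraries of 1 genotype. The genes of this and the next paragraph are given in TMM-scaled CPM, WT first. They were singled out after their values were seen, and apolpp was the only one of them that edgeR called. Act79B, the actin of the jump muscle and other tubular muscles, was at 1742 and 474 CPM against 401 and 583 CPM, so WT replicate 1 was far above the others and the genotypes overlapped (log2 -1.17, edgeR adjusted p = 0.294). The troponin C gene TpnC41C was at 129 and 42.3 CPM against 37.8 and 51.5 CPM and the myofilin gene Mf at 529 and 196 CPM against 212 and 299 CPM, and WT replicate 1 was again the highest for both. Genes of synaptic vesicle release were highest in Rbf-KD replicate 2: nSyb was at 2.93 and 3.35 CPM against 3.96 and 11.7 CPM, and Syt1 at 7.496 and 6.89 CPM against 10.9 and 23.4 CPM. The pan-neuronal gene elav was more even, at 31.1 and 22.8 CPM against 24.8 and 25.2 CPM.

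Digestive and excretory genes followed another pattern. The amylase gene Amy-p was at 0.0501 and 8.02 CPM against 16.7 and 2.25 CPM, and the Malpighian tubule gene NaPi-T at 0.1003 and 3.43 CPM against 2.32 and 2.26 CPM, so WT replicate 1 was nearly free of both while the other libraries of either genotype held them. The oenocyte P450 gene Cyp4g1 was at 76.5 and 9.98 CPM against 1.53 and 0.714 CPM, with WT replicate 1 the highest. Fat body markers differed from these patterns in that their levels were similar within each genotype: apolpp, the lipoprotein of the blood, was at 129 and 99.1 CPM against 1106 and 774 CPM (log2 3.04, edgeR adjusted p = 0.00134).

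Non-coding and chromosome-wide groups gave further values. All 60 ribosomal RNA genes tested were lower (median log2 -2.32), in libraries that were depleted of ribosomal RNA. Of 18 snRNA genes 12 were lower and 0 higher, and of 23 tRNA genes 12 were lower and 0 higher. The part of ribosomal RNA depletion or of size selection in these values was not tested. The treatment of shared reads is not given, so genes of these groups that share reads may not be separate observations. On chromosome 4, 7 of 85 genes (8.24%) were higher and 26 (30.6%) lower, at a median of -0.32, but 0.79 on the library-total scale. On chromosome arm 2L 513 of 2086 genes (24.6%) were higher and 363 (17.4%) lower, at a median of 0.23. Over all genes tested 19.5% of genes were higher and 20.4% lower, and the differences between chromosomes were not tested.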
